A study of Mus musculus with 2 samples.

Results

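Heat shock proteins are the chaperones that keep other proteins folded, and 10 of their genes were followed here out of 31053 genes counted: Hspa1a, Hspa1b, Hspb1, Hspa8, Hsp90aa1, Hsp90ab1, Dnajb1, Hsph1, Hspe1 and Hspd1. The list is a fixed set of gene names with no threshold on their levels, chosen with earlier results of these data known, and all 10 genes had at least 1 unique molecular identifier (UMI, a counted RNA molecule) in both libraries. Single cells were sequenced from B16F10 tumours, a transplantable mouse melanoma line grown under the skin of C57BL/6 hosts that either kept Atf4 (Atf4 WT/WT, the WT library) or had lost it (Atf4 Δ/Δ, the KO library). Hosts of both genotypes were 11 weeks old by the labels, carried Rosa26::CreERT2, a tamoxifen-activated Cre recombinase expressed throughout the body, and received tamoxifen. Each library pooled 2 small tumours, by the labels from a male and female pool of hosts. Each genotype is thus 1 library, no test between genotypes is possible, and host genotype cannot be told apart from tumour, sex mix or library preparation. The injected melanoma cells keep their own Atf4, so their host environment is what differs between the libraries.

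The HSPA (HSP70) proteins bind exposed hydrophobic stretches of unfolded clients, DNAJ proteins deliver clients to them, HSPH1 exchanges their nucleotide, and HSP90 proteins take over late-folding clients such as kinases and steroid receptors. HSPB1 is a small chaperone that holds unfolded proteins without using ATP, while HSPD1 and its lid HSPE1 form the folding chamber of the mitochondrial matrix. Under heat, oxidative or proteotoxic stress, heat shock factor 1 (HSF1) binds inverted repeats of nGAAn upstream of these genes, and Hspa1a and Hspa1b are the classic inducible targets whereas Hspa8 and Hsp90ab1 are made constitutively.

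Hspa1a (chr17:34969190-34972156, minus strand, GRCm38) and Hspa1b (chr17:34956436-34959238, minus strand) are neighbouring copies with starts 12918 bp apart. Hspe1 (chr1:55088132-55091307, plus strand) and Hspd1 (chr1:55077835-55088243, minus strand) lie on opposite strands with starts 111 bp apart. Each start lies within the other gene, and their first exons overlap. The other genes are single: Hspb1 (chr5:135887919-135889563, plus), Hspa8 (chr9:40800984-40810087, plus), Hsp90aa1 (chr12:110690605-110702728, minus), Hsp90ab1 (chr17:45567775-45573271, minus), Dnajb1 (chr8:83608193-83612653, plus) and Hsph1 (chr5:149614287-149636376, minus).

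The upstream sequences of the inducible genes are shown for Hspa1a and Hspa1b, the near-identical copies that differ in their class pattern, and for Hspb1, which like them was higher in CAFs than in melanoma cells. They are the 250 bases before the annotated start from RefSeq (GRCm38.p6), 5′ to 3′ on the gene's strand, with capitals at each match to GAANNTTC or TTCNNGAA, 2 nGAAn units placed head to head or tail to tail.
Hspa1a, chr17:34972157-34972406, minus: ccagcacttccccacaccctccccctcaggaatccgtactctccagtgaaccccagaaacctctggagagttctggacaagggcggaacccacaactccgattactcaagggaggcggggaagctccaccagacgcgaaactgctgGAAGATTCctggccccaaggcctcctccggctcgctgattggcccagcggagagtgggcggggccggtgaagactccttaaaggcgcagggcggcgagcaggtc
Hspa1b, chr17:34959239-34959488, minus: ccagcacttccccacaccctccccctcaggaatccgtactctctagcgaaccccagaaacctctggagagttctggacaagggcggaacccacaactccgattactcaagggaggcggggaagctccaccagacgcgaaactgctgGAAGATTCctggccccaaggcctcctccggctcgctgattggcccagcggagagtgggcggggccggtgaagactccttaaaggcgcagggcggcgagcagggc
Hspb1, chr5:135887669-135887918, plus: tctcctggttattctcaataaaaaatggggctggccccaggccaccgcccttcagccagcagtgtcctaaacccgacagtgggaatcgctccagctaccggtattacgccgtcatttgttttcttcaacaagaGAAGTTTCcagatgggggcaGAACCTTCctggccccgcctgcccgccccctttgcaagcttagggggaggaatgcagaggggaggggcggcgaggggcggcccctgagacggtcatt
The Hspa1a and Hspa1b windows were identical at 247 of 250 bases (98.8%), and the differences were C207T, T204C and T2G, with the Hspa1a base first, the position counted upstream from the annotated start, and the Hspa1b base last. Both hold GAANNTTC once, starting 104 bases before the start. Hspb1 holds it at 117 and at 97 bases before the start.

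For the mitochondrial pair and for Hsph1 only the 30 bases around the matches are given.
Hspe1, chr1:55088053-55088082, plus: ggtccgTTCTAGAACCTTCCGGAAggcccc
Hsph1, chr5:149636351-149636380, minus: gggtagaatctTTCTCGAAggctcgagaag
The Hspe1 site joins the repeats into overlapping runs of 3 units, a form found in 153 of 32851 windows of this length (0.466%), and it lies within an annotated first exon of Hspd1, whose second window holds the same site read from the other strand. The Hsph1 site overlaps an annotated Hsph1 exon. Dnajb1 had no match in its window. Either short motif was present in 12.8% of all windows (6.69% for GAANNTTC and 7.17% for TTCNNGAA), both motifs being their own reverse complement and able to overlap, so a match is a description and not evidence of a bound site. Windows for 7 of the 10 genes were matched by symbol, and Hspa8, Hsp90aa1 and Hsp90ab1 are given by name and position alone.

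The WT library held 6304 barcodes and 38417113 UMIs and the KO library 5474 barcodes and 38290024 UMIs, of which 3861 and 3557 passed the filters, and 10 barcode sequences occurred in both. Cells were classed by marker genes that include none of the 10 members, which gave, in WT and KO order, 1625 and 1787 melanoma-like, 582 and 484 macrophage-like, 213 and 147 monocyte-like, 159 and 140 cancer-associated fibroblast-like (CAF) and 45 and 19 endothelial-like cells, called by these names without the ending from here on. Levels are given as CPM, the UMIs of a gene per 1000000 UMIs of its class, and pairs of values without further label are WT first and KO second. Atf4 checked the labels: it was at 168 and 38.8 CPM in macrophages, a log2 difference of -2.11, and differed by -3.19 in CAFs, but stood at 227 and 211 CPM in melanoma cells. Melanoma cells had medians of 11383 and 10779 UMIs, macrophages 2626.5 and 2605, and CAFs 3740 and 3897. Erythroid markers in melanoma cells were at 28.9 and 0.0508 CPM, so red cell RNA differed between the libraries, and its part in the results was not tested. Intervals given with values are exact 95% intervals that cover counting error only, and since most members varied between cells by more than counting error, they are too narrow for a difference between tumours.

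Most members differed more between melanoma and host cells than between host genotypes, in the same direction in both libraries. Hspa1a, the inducible HSP70, stood at 3.13 and 2.08 CPM in melanoma cells, against 214 and 167 CPM in macrophages, 169 and 68.2 CPM in CAFs and 429 and 74.0 CPM in endothelial cells. In macrophages it was therefore 68.4-fold higher than in melanoma cells of the WT library (log2 6.10, 5.69 to 6.52) and 80.3-fold higher in the KO library (log2 6.33, 5.84 to 6.84). RNA released by broken cells, taken to have the make-up of the entire library and scaled by markers foreign to the class, would give 2.06 and 1.02 CPM of Hspa1a as free RNA in melanoma cells, much of what was counted there, so no expression of Hspa1a by melanoma cells is read from these values. Its share of cells at a fixed depth of 2000 UMIs showed the same contrast, with a UMI in 99 of 431 WT macrophages (23.0%) and 61 of 343 KO macrophages (17.8%) but in 0.447% and 0.346% of melanoma cells. Before thinning, which left out 151 WT and 141 KO macrophages and 59 and 51 melanoma cells, the shares were 27.0% and 23.1% of macrophages and 2.28% and 1.57% of melanoma cells.

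Hspa1b, the neighbouring copy, followed a flatter pattern. It was counted at 13.9 and 10.3 CPM in melanoma cells, 58.1 and 47.0 CPM in macrophages and 63.4 and 35.0 CPM in CAFs, so the macrophage excess was 4.19-fold in WT and 4.58-fold in KO. Free RNA was put at 1.37 and 0.785 CPM of Hspa1b in melanoma cells, below the counted level. As a result the pair was used in different proportions. Hspa1a made up 361 of the 459 UMIs of the pair in WT macrophages (78.6%, 74.6 to 82.3%) and 224 of 287 in KO macrophages (78.0%, 72.8 to 82.7%), but 58 of 315 in WT melanoma cells (18.4%, 14.3 to 23.1%) and 41 of 243 in KO melanoma cells (16.9%, 12.4 to 22.2%). Monocytes, CAFs and endothelial cells sided with macrophages, at 66.1 to 80.6% across both libraries. Their last 500 transcribed bases shared no 91-base stretch, so reads that end there can be told apart. Within each class the intervals of the 2 libraries overlapped.

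Hspb1, the small chaperone, was highest in endothelial cells in both libraries. It stood at 326 and 370 CPM in endothelial cells, which is 106-fold and 80.0-fold above melanoma cells, and at 47.2 and 118 CPM in CAFs, while macrophages had only 13 and 8 UMIs in all. Monocytes were at 67.7 and 6.12 CPM, but these are 16 UMIs held by 2 WT cells and 1 KO UMI. The endothelial values rest on 63 and 30 UMIs, and 1 KO cell held 15 of the 30. Of its last 500 bases, 6.83% of the 91-base stretches also occur in the pseudogene Hsp25-ps1, so its counts are uncertain.

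**Figure D1:**
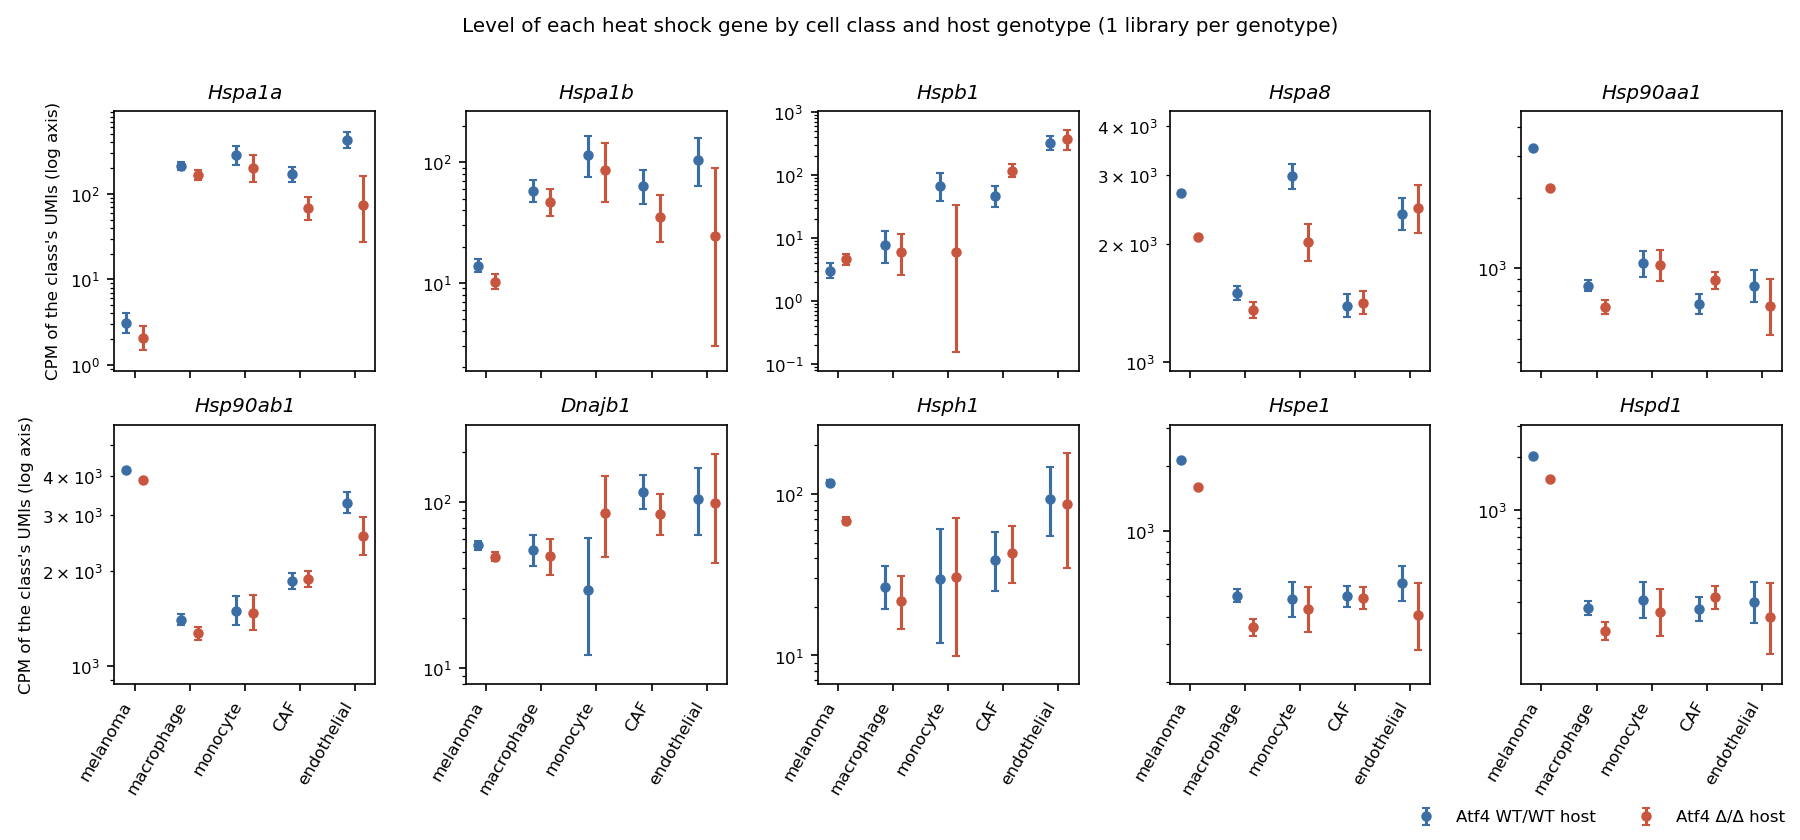
Level of each of the 10 genes as CPM of the class (vertical axis, log scale) in each marker-gated class of the WT (blue) and KO (red) library, with bars for exact 95% Poisson intervals that cover counting error. Hspa1a sits at 3.13 and 2.08 CPM in melanoma cells and at 214 and 167 CPM in macrophages, while Hspd1, Hspe1, Hsp90aa1 and Hsp90ab1 are highest in melanoma cells among melanoma cells, macrophages and CAFs.

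The mitochondrial chaperonin genes ran the other way. Hspd1, the chamber subunit, was at 2024 and 1502 CPM in melanoma cells but 277 and 205 CPM in macrophages, 0.137 of the melanoma level in the WT library, and 273 and 318 CPM in CAFs. Hspe1, the lid, was at 2135 and 1604 CPM in melanoma cells, 502 and 358 CPM in macrophages and 499 and 489 CPM in CAFs. Both were thus lower in these host classes than in melanoma cells in each library. Free RNA was put at 95.4 and 78.6 CPM of Hspd1 and 108 and 89.4 CPM of Hspe1 in macrophages, below the counted levels.

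Of the cytosolic HSP90 genes, Hsp90aa1, the more inducible form, was at 3254 and 2197 CPM in melanoma cells, 842 and 684 CPM in macrophages and 706 and 887 CPM in CAFs. Hsp90ab1, the constitutive form, was at 4166 and 3883 CPM in melanoma cells, 1401 and 1268 CPM in macrophages and 1854 and 1891 CPM in CAFs. Hspa8, the constitutive HSP70, was closer between classes, at 2696 and 2079 CPM in melanoma cells, 1503 and 1357 CPM in macrophages, 2973 and 2020 CPM in monocytes, and 1394 and 1418 CPM in CAFs. Of the 91-base stretches in its last 500 bases, 24.1% also occur in Gm8355, so Hspa8 counts are uncertain. The co-chaperones differed from each other. Dnajb1, the HSP40 that serves inducible HSP70, was nearly level between melanoma cells and macrophages, at 54.8 and 46.8 CPM against 51.6 and 47.0 CPM, and higher in CAFs at 115 and 84.9 CPM. Hsph1, the nucleotide exchange factor, was higher in melanoma cells (117 and 68.4 CPM) than in macrophages (26.7 and 21.7 CPM).

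The comparison of host genotypes asks whether loss of host Atf4 went with different chaperone levels in the tumour cells and in the host cells themselves. A gene was called when its KO to WT ratio was at least 1.5-fold with a counting interval that left out 0 on the log2 scale, among genes with at least 50 UMIs in the class over both libraries. This is a rule of size and not a test.

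In melanoma cells the members were mostly lower in the tumours of Atf4 Δ/Δ hosts, by modest amounts. Their summed level was 14466 and 11397 CPM, a log2 difference of -0.34. The median over the members was -0.42 against 0.02 over all genes of the class. Only Hsph1 was called lower and only Hspb1 higher, 2 of 10 where 10% of the 10957 genes with enough UMIs were called in either direction (6.73% higher and 3.29% lower), too few calls to set the members apart from that background. Hsph1 went from 2171 to 1345 UMIs, with a log2 difference of -0.78 (-0.88 to -0.68). At 2000 UMIs per cell, 19.9% of WT and 11.7% of KO melanoma cells had a Hsph1 UMI (64.0% and 44.7% unthinned). Hspa1a was at -0.59 (-1.20 to 0.02) on 58 and 41 UMIs. Hsp90aa1 was at -0.57, Hspa1b at -0.43 (-0.71 to -0.16), Hspd1 at -0.43, Hspe1 at -0.41, Hspa8 at -0.37, Dnajb1 at -0.23 (-0.36 to -0.10) and Hsp90ab1 at -0.10. Constitutive Hsp90ab1 thus stood nearest to 0. The Hspb1 call rests on few cells: its 57 WT UMIs came from 24 cells, 1 of which held 30, and its 91 KO UMIs came from 38 cells. With a stricter marker gate its difference was 0.24 and it was not called.

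The melanoma difference was compared within cell states and depths. Among cells with at least 3 cycling markers (1220 WT and 1100 KO), Hsp90aa1 was at 3400 and 2388 CPM, a log2 difference of -0.51, and among the other 405 and 687 cells it was at 2554 and 1771 CPM, a difference of -0.53. Hsph1 differed by -0.69 in cycling and -0.76 in other cells, and Hspd1 by -0.35 and -0.34. Hspe1 differed by -0.42 in cycling but by only -0.20 (-0.25 to -0.15) in other cells, and Hspa1b by -0.29 (-0.61 to 0.03) and -0.96 (-1.49 to -0.42). Apart from Hspb1, the values of all members were thus below 0 within either state, though not by the same amount. Hspb1 changed direction, with 1.20 to 2.87 as the interval in cycling cells and -1.30 (-2.02 to -0.59) in the others, which include the WT cell with 30 UMIs. In cells of 500 to 4000, 4000 to 8000, 8000 to 16000 and 16000 to 32000 UMIs, a split made after the data were seen, the log2 difference of the summed members was -0.33, -0.17, -0.34 and -0.36. It had the same sign in each range and was smallest in the second, and in cells of 2000 to 8000 UMIs it was -0.19. The melanoma markers that define the class also differed, at 13584 and 10283 CPM, and their part in the result was not tested.

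In macrophages, which carry the Atf4 deletion themselves in the KO library, the summed members were at 4883 and 4161 CPM, a log2 difference of -0.23. Of the 9 members with enough UMIs, 0 were called, where 10.5% of 5949 genes were (5.66% higher and 4.81% lower). The median over these 9 members was -0.30 against -0.01 over all genes. Hspe1 was furthest from 0 at -0.49 (-0.65 to -0.33), followed by Hspd1 at -0.43 (-0.65 to -0.21), Hspa1a at -0.36 (-0.60 to -0.11) and Hsp90aa1 at -0.30 (-0.42 to -0.18). At a fixed depth of 2000 UMIs, 59.6% of WT and 46.6% of KO macrophages had a Hspe1 UMI, and 40.8% and 30.9% a Hspd1 UMI (71.1% and 57.9%, and 51.0% and 42.4%, unthinned). The Hspa1a difference was also read in cells chosen by sex-linked genes. Y-linked genes had 0 UMIs in WT macrophages, monocytes, CAFs and endothelial cells. In KO they had 109, 17, 46 and 9 UMIs in these classes. The WT library thus showed no sign of male host cells, although the labels give a male and female pool. In every host class, sex therefore differed along with genotype. Limited to macrophages that had a Xist UMI and lacked Y-linked ones (452 WT and 49 KO), the Hspa1a difference was -0.11. These KO cells held 153640 UMIs in all, against 1391248 in WT. The value is therefore uncertain, and no dependence on sex is read from it.

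In CAFs the members differed in direction. The summed level was 5162 and 5353 CPM, a log2 difference of 0.05 (-0.02 to 0.12), and the median over the members was 0.03 against -0.03 over all genes. Within that even total, 2 members were called lower and 1 higher. Of 3456 genes, 19.5% were called in either direction, 11.1% lower and 8.39% higher. These are too few calls to set the members apart from that background. Hspa1a was at 104 UMIs in WT and 41 in KO, a log2 difference of -1.31 (-1.87 to -0.78). This counting interval lay below that of macrophages, but 5 WT cells held 31 of the 104 UMIs. The difference between the classes was not tested. Hspa1b, with 39 and 21 UMIs, differed in the same direction by -0.86 (-1.70 to -0.06). Together the pair was found in 59 of 159 WT and 38 of 140 KO CAFs, and 5 WT cells held 42 of its 143 UMIs. At 2000 UMIs per cell, 19.0% (12.8 to 26.6%) of 137 WT and 14.4% (8.76 to 21.8%) of 125 KO CAFs had a Hspa1a UMI. For Hspa1b these shares were 7.30% and 7.20%. The intervals overlapped at this depth. Unthinned, 31.4% of WT and 17.9% of KO CAFs had a Hspa1a UMI, and 17.0% and 13.6% a Hspa1b UMI. The Hspa1b call was lost with a stricter gate, in cells of 2000 to 8000 UMIs and in the cells limited by Xist, while that of Hspa1a was not.

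Hspb1 was higher in KO CAFs, with 29 and 71 UMIs in 24 of 159 and 41 of 140 cells and a log2 difference of 1.32 (0.68 to 2.001), which was 0.84 in cells of 2000 to 8000 UMIs. At 2000 UMIs per cell, 8.76% (4.61 to 14.8%) of WT and 16.0% (10.1 to 23.6%) of KO CAFs had a Hspb1 UMI, with overlapping intervals. Hsp90aa1 was also higher, at 434 and 533 UMIs, by 0.33 (0.14 to 0.52), the opposite side of 0 from melanoma cells and macrophages. Hspd1 (0.22, -0.09 to 0.53), Hspa8 (0.02), Hsp90ab1 (0.03) and Hspe1 (-0.03) had intervals that spanned 0, as did Dnajb1 at -0.44 (-0.99 to 0.10). Among CAFs chosen by Xist in the same way (130 and 41), Hspa1a differed by -1.81, Hspb1 by 1.34 and Hsp90aa1 by 0.37. These KO CAFs held 136336 UMIs in all, against 517362 in WT, so the Hspa1a and Hspb1 values rest on few KO UMIs. The summed CAF markers stood at 46724 and 34883 CPM, so the classes also differed in the genes that define them, and the part of this in the result was not tested.

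Monocytes and endothelial cells gave few UMIs. Of 6 monocyte members with enough UMIs 0 were called, where 14.7% of 1180 genes were (7.03% higher and 7.63% lower), and Hspa8 was furthest from 0 at -0.56 (-0.75 to -0.37). Of the 67 WT monocyte UMIs of Hspa1a, 1 cell held 21. Among 7 endothelial members tested, Hspa1a was called lower, with 83 UMIs in 19 of 45 WT cells and 6 UMIs in 6 of 19 KO cells, a log2 difference of -2.54 (-4.02 to -1.35), where 12.1% of 840 genes were called, 6.55% higher and 5.6% lower. The KO value of Hspa1a was thus below its WT level in each host class, from -0.36 in macrophages to -2.54 in endothelial cells. Its interval reached above 0 in monocytes, and its difference was smaller in macrophages limited by Xist, on 49 KO cells. Melanoma cells are left out here because free RNA could give much of their Hspa1a. The host classes come from the same libraries, so their shared direction is not independent.

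Other chaperone and stress genes were read from fixed lists, whose members were chosen with earlier results of these data known. In melanoma cells the inducible cytosolic partners of HSP70 and HSP90 had a median of -0.39. Of these 12, 2 were called lower and 0 higher, where 3.29% and 6.73% of all genes of the class were. Bag3, Dnajb4 and Cryab lay above 0, at 0.07, 0.02 and 0.04. Ahsa1, the activator of the HSP90 ATPase, went from 150 to 89.7 CPM, a log2 difference of -0.74, and Fkbp4, a HSP90-bound immunophilin, differed by -0.63. Among constitutive cytosolic chaperones 1 of 12 was called lower, Ppid, another HSP90-bound immunophilin, at -0.59. None of the 3 heat shock factors and binding protein, 7 TRiC chaperonin, 7 mitochondrial or 9 endoplasmic reticulum chaperone genes was called in melanoma cells, with medians of -0.07, -0.16, 0.06 and -0.08. The median of 0.06 for the mitochondrial list, which leaves out Hspd1 and Hspe1, was near the 0.02 over all genes of the class. Of 14 immediate early genes, which any cell switches on within minutes of a stimulus, 2 were called higher and 1 lower, with Atf3 at 1.17 and Socs3 at -0.79.

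In macrophages 1 of 11 inducible partners was called higher, Dnajb4 on 21 and 33 UMIs at 0.99, and their median was -0.31. Hsbp1, which binds HSF1 trimers and is held to damp the heat shock response, was higher at 296 and 481 CPM, a log2 difference of 0.70 (0.53 to 0.87). In the endoplasmic reticulum list 2 of 9 were called lower, Sdf2l1 at -0.71 and Hsp90b1, the HSP90 of that compartment, at -0.61. The constitutive (11 genes), TRiC (7) and mitochondrial (7) lists had 0 calls, and 1 of 14 immediate early genes was called, Fosb, lower at -0.66. Of all genes of the class, 5.66% were called higher and 4.81% lower, and 1 or 2 calls are too few to set a list apart from that background.

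In CAFs Cryab, a small heat shock protein related to HSPB1, was the 1 called member of 9 tested inducible partners, at 70 and 194 UMIs or 114 and 323 CPM, with a log2 interval of 1.10 to 1.92. Cryab and Hspb1 were thus both higher in KO CAFs. Hspb8, on the same list as Cryab, was level at 28 and 27 UMIs, a log2 difference of -0.02 (-0.84 to 0.80). Ppid was called lower at -0.80 among 10 constitutive genes, 2 of 7 endoplasmic reticulum genes were called lower, with Dnajb9 at -0.97, and the TRiC (7 genes), mitochondrial (3) and heat shock factor (1) lists had 0 calls. Of all genes of the class, 11.1% were called lower and 8.39% higher, so these lists with 1 or 2 calls are not set apart from that background. Immediate early genes stood apart in this class. Of 14, 8 were called lower and 0 higher, their median was -0.64, and their sum went from 6554 to 4528 CPM. Their sum was lower in KO CAFs, as were Hspa1a and Hspa1b, and their part in the difference of that pair was not tested. Over 137 WT and 125 KO CAFs, this sum had a Pearson correlation of 0.07 and 0.12 with Hspa1a. With Hspa1b it was 0.19 and 0.14. In macrophages, where the Hspa1a difference was smaller, the immediate early sum was 5369 and 4819 CPM. In endothelial cells (45 and 19), that sum was 4827 and 4366 CPM, while Hspa1a was at 429 and 74.0 CPM.

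Hspa1a also varied widely between cells of a class. At 2000 UMIs per cell its variance was 2.74 times its mean in WT macrophages and 2.69 times in KO macrophages, and the top 10% of cells held 71.2% and 77.4% of its UMIs. Hspe1, by contrast, had a variance 0.980 times its mean in WT and 1.17 times in KO macrophages, where counting alone gives about 1. Over the 431 WT and 343 KO macrophages of that depth, Hspa1a and Hspa1b counts had a Pearson correlation of log2(count + 1) of 0.51 and 0.30. Of 4016 genes, those most like Hspa1a were its copy Hspa1b, then the lectin gene Clec10a (0.27 and 0.29), Ly6e (0.24 and 0.28) and Wfdc17 (0.23 and 0.23). In melanoma cells the most alike of 4503 genes reached only 0.10 and 0.08, too weak to read in such sparse counts.

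Cells with more mitochondrial RNA, a usual sign of a stressed or broken cell, differed in the inducible pair. In WT macrophages, Hspa1a plus Hspa1b was at 187 (68.5 to 406) CPM of non-mitochondrial UMIs with under 2.5% mitochondrial UMIs, where 18 cells held 6 UMIs. It was at 199.8 CPM with 2.5 to 5% (302 cells), 376 CPM at 5 to 7.5% (262 cells) and 879 CPM at 7.5 to 15% (59 cells, beyond the filter). KO macrophages were at 53.7 (14.6 to 137) CPM in the lowest range, on 4 UMIs of 34 cells, and then at 210, 261 and 318 CPM. The libraries were therefore close at 2.5 to 5% and apart at the higher shares. In CAFs the pair was at 217 and 95.7 CPM at 2.5 to 5%. Under 2.5%, where there were 18 WT and 30 KO CAFs, it was at 243 (136 to 401) and 170 (106 to 257) CPM with overlapping intervals, and Hspa1a alone was at 130 and 147 CPM, the higher value in KO. The part of cell damage in these values was not tested. The summed members of melanoma cells in WT were at 10612, 15360, 15434, 13348 and 10079 CPM at under 2.5, 2.5 to 5, 5 to 7.5, 7.5 to 15 and over 15%, and in KO at 10488, 12139, 12121, 10698 and 8828 CPM. They were thus higher at 2.5 to 7.5% than at either end. In the lowest range, with 30 WT and 135 KO cells, the libraries were close, with intervals of 10081 to 11164 and 10305 to 10674 CPM.

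**Figure D2:**
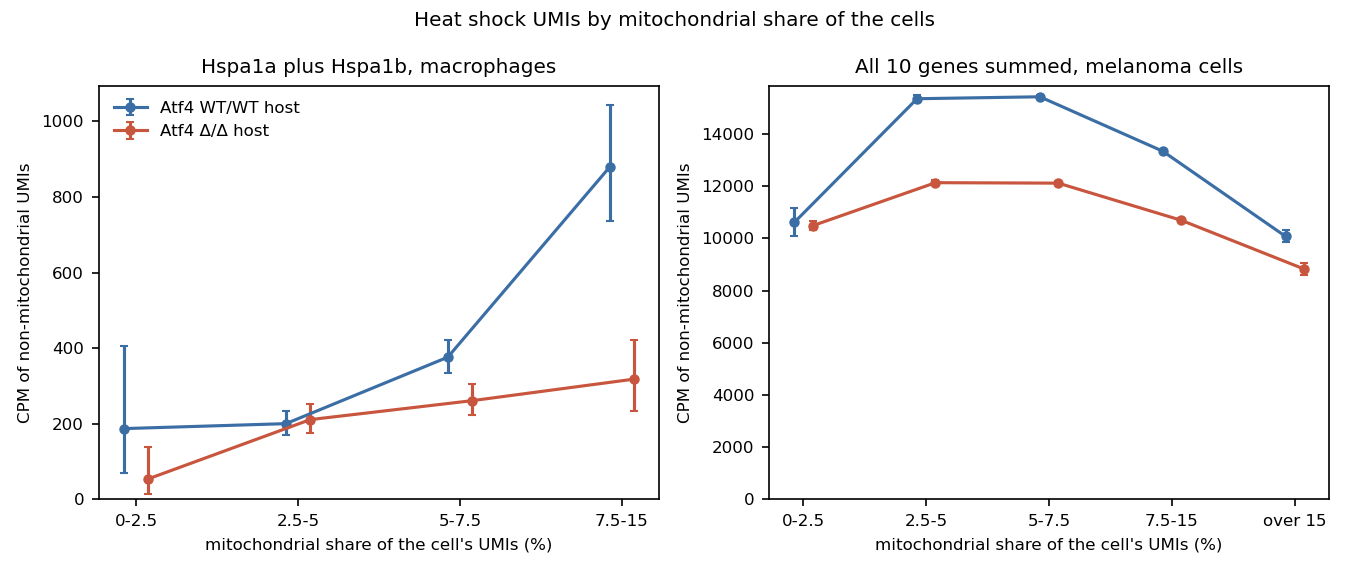
Level as CPM of non-mitochondrial UMIs against the range of mitochondrial share of the cell, for Hspa1a plus Hspa1b in macrophages (left) and the 10 summed genes in melanoma cells (right), in the WT (blue) and KO (red) library, with exact 95% Poisson intervals. From 2.5% upward the pair in WT macrophages goes from 199.8 to 879 CPM while KO macrophages go from 210 to 318 CPM, and the summed genes of WT melanoma cells start at 10612, reach 15434 and end at 10079 CPM.

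Within melanoma cells the members also separated by proliferation. Hspd1 was higher in cycling than in other cells by a log2 difference of 0.67 in WT and 0.66 in KO, Hsph1 by 0.57 and 0.64, Hsp90aa1 by 0.41 and 0.43, and Hspe1 by 0.39 and 0.17. Hspa8 (0.19 and 0.19) and Hsp90ab1 (0.11 and 0.16) differed less and Dnajb1 (-0.04 and -0.08) hardly. Hspe1 was the one among these whose libraries were not close. Hspa1b was at -0.61 (-1.03 to -0.18) in WT and 0.05 (-0.39 to 0.51) in KO, and Hspa1a at 0.18 and 0.47 with wide intervals that spanned 0. Hspb1, at -0.21 in KO and -3.50 in WT, rests in WT on 17 UMIs in cycling cells against 40 in the others, and 1 cell held 30 of them.

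**Figure D3:**
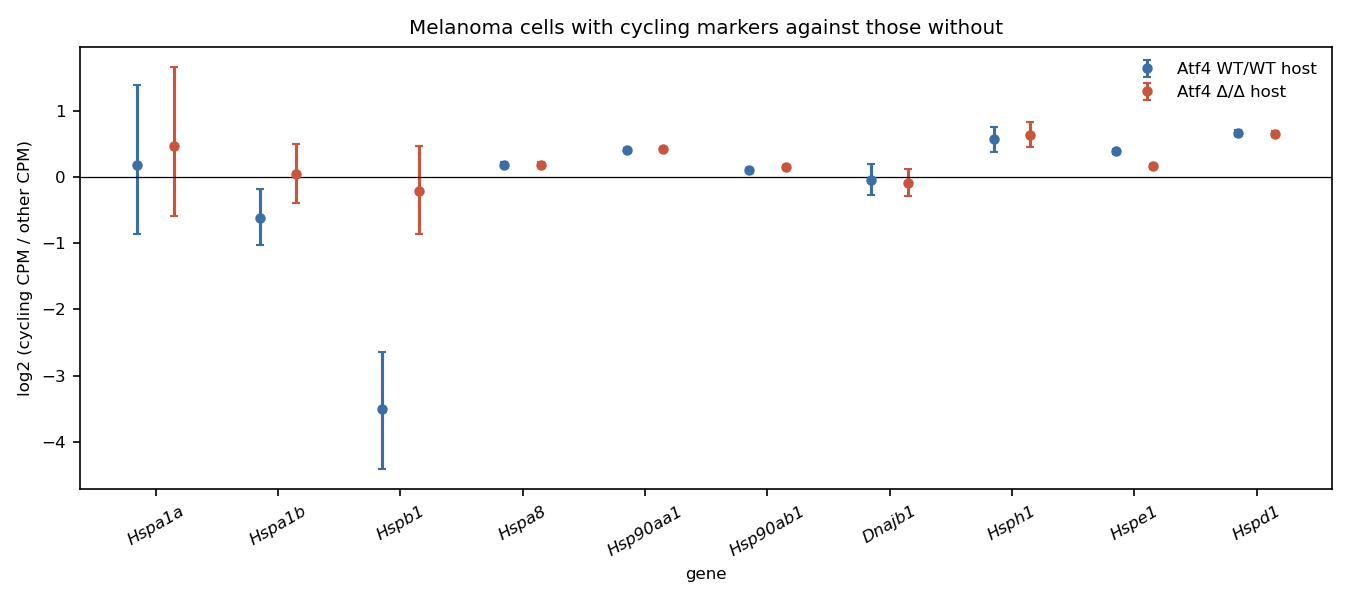
Log2 ratio of the level in cycling to other melanoma cells (vertical axis) for each gene in the WT (blue) and KO (red) library, with exact 95% intervals that cover counting error. Hspd1 lies at 0.67 and 0.66 and Hsph1 at 0.57 and 0.64, while Dnajb1 sits at -0.04 and -0.08.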

How the data were processed

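Raw UMI counts per gene and barcode were used as deposited. The authors made these counts with Cell Ranger (version 3.1.0, GRCm38 build, per the submitters' processing notes) from 10x 3′ libraries. The labels and the methods name different kit versions. Cells were required to have 200 to 5000 genes and no more than 7.5% of UMIs from mitochondrial genes. A cell entered the melanoma, macrophage, CAF or endothelial class with at least 5 of 8 markers detected, and the monocyte class with at least 3 of 7, with at most 2 markers of any other host class. Host classes were also held to at most 3 melanoma markers, and every class to at most 2 of 4 erythroid markers. Since red cell RNA differed between the libraries, the erythroid limit may have left out cells unequally, which was not counted. Classes needed at least 15 cells per library, a limit set after cell counts and first values were seen. T/NK and dendritic cells fell short and were not used. Doublets were kept in the main values, and Scrublet in scanpy 1.11.5 called 114 of 3861 WT and 50 of 3557 KO cells in an alternative.

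Levels are summed UMIs per 1000000 UMIs of the class. Intervals are exact at 95% (Poisson for levels, conditional binomial for ratios, Clopper-Pearson for shares) and cover counting error only. Cells are not replicates, and with 1 library per genotype no p-value was computed. A gene was called at a fold of at least 1.5 with an interval off 0, given at least 50 UMIs over both libraries. The code was tested on simulated data. The 10 genes and the lists were chosen with earlier results of these data known. From outside the 10 genes, the text names the called member furthest from 0 of each list in each direction. It also names the genes most like Hspa1a in macrophages. Fkbp4, Hsp90b1, Bag3, Dnajb4, Cryab and Hspb8 were chosen after their values were seen. Cct6a was not used. Computation was in Python 3.11.15 with numpy 2.4.6 and scipy 1.17.1, and TMM factors came from edgeR 4.0.16 in R 4.3.3. Gene positions are from GENCODE vM21.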

Additional observations from a re-analysis of the deposited data

Results flagged for a closer look

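Hsp90aa1, the more inducible cytosolic HSP90 gene, had a log2 KO to WT difference of 0.33 (0.14 to 0.52) in CAFs but of -0.57 in melanoma cells and of -0.30 (-0.42 to -0.18) in macrophages, so the classes lay on opposite sides of 0 with counting intervals that did not reach it. With 1 library per genotype the difference between the classes was not tested. The CAF value rests on 434 WT and 533 KO UMIs.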

How the results depend on the processing

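No paired analysis was possible because there was 1 library per genotype. Of the values that answer a comparison, 100 moved by less than their counting interval under an alternative or kept a similar count, and 20 did not, and of the values of single genes, 545 stayed, 52 moved and 2 changed direction. The log2 difference of the summed members in melanoma cells (-0.34) was -0.34 with a stricter gate, just outside its narrow interval, -0.32 without mitochondrial and ribosomal protein genes, -0.38 with TMM scaling, -0.33 averaged over cells and -0.19 in cells of 2000 to 8000 UMIs, where Hspa1a plus Hspa1b (-0.46) was also -0.19. The number of melanoma members called (2) was 1 with no upper limit on genes, with a stricter gate, with doublets removed and in cells of 2000 to 8000 UMIs. It was 1 in place of 0 in macrophages with a mitochondrial limit of 15%, and 1 in place of 3 in CAFs limited to those with Xist and without Y-linked UMIs. Hspa1a plus Hspa1b in CAFs (-1.17) was -1.67 averaged over cells. With free RNA subtracted, Hspa1a plus Hspa1b in WT was 4.31 above melanoma cells in macrophages and 4.07 in CAFs (3.78 before), and the summed members stood at -1.72 and -1.61 in WT and KO macrophages (-1.57 and -1.45) and at -1.59 and -1.16 in WT and KO CAFs (-1.49 and -1.09), with -1.16 in KO also under a stricter gate. In monocytes of 2000 to 8000 UMIs Hspa8 was 0.37 (-0.56 before) and the summed members 0.55 (-0.28 before), resting on 2 WT and 4 KO cells. For all of these the cause was not tested. A minimum of 20 UMIs in place of 50 was also tried. Depth limits Hsph1 (50 UMIs), Hspa1b and Hspb1 in CAFs and all but Hspa8 and the HSP90 genes in monocytes and endothelial cells.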

Other observations

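Among kept cells that met none of the 5 classes, 1237 in WT and 980 in KO, which include the T/NK and dendritic cells, the 10 genes summed to 10068 CPM in WT and 8577 CPM in KO cells.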
